A study of Mus musculus with 6 samples.

Results

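The 8 genes Spi1, Cebpa, Cebpb, Runx1, Mitf, Tfec, Tfeb and Tfe3 encode transcription factors that set up and run the macrophage and osteoclast programmes. They were found by gene symbol: every probe set of the Mouse Genome 430 2.0 array whose annotation named 1 of these 8 symbols alone was taken, which gave 15 probe sets. Of these, 14 passed the filter on dim probe sets, and each of the 8 genes, of 18193 on the array that have a probe set of 1 symbol, was represented by its brightest one. The cells were bone marrow macrophages of c57BL/6 mice lacking both TNF receptors (TNFR1-/-R2-/-). A retrovirus gave them a chimeric receptor, the outer part of mouse TNFR1 fused to the membrane-spanning and inner parts of mouse RANK. In the mutant group the IVVY motif of the RANK part was inactivated by mutation, and in the wild-type group it was intact. All cultures of both groups were selected with puromycin (2 ug/ml, 3 days) and then received M-CSF (44 ng/ml) and TNF alpha (10 ng/ml) for 24 hours. For each array the RNA of 6 dishes was combined, and the arrays came from 3 independent assays (n = 3 arrays per group). Mutant and wild-type arrays of the same number were taken to come from 1 assay, because they deviated together. The assay numbers below rest on this. The ages of the animals, the virus promoter and whether assays used separate animals are not given in the sources used here.

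PU.1, the ETS factor encoded by Spi1, is required for macrophages and osteoclasts to form at all. C/EBP alpha, C/EBP beta and RUNX1 act with it at enhancers of myeloid genes. The MiT factors MITF, TFEC, TFEB and TFE3 share a basic helix-loop-helix leucine zipper and bind E-box sequences as dimers with each other. Mice with dominant mutations of Mitf have dense bones because their osteoclasts do not mature, and MITF with PU.1 drives osteoclast genes such as Acp5 and Ctsk. TFEB and TFE3 switch on genes of lysosomes and autophagy, and TFEC is largely restricted to macrophages.

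The macrophage label was borne out by its markers. All 8 (Csf1r, Adgre1, Cd68, Lyz2, Fcgr1, Mertk, Itgam and Cd14) passed the filter on dim probe sets, with summed intensities of 132859 to 147539 on the mutant and 137080 to 150732 on the wild-type arrays. The summed osteoclast markers were at 1117 to 1879 on the mutant and 8534 to 26865 on the wild-type arrays, and all 8 had a lower mean in the mutant. Of these, Oscar was under the filter and above the floor on wild-type array 3 alone (29.5). Calcr and Ocstamp were at the floor in the mutant, at most 6.59 and 4.64. Mitf is also a gene of melanocytes and mast cells, whose markers were near the floor: 0 of 6 mast cell markers passed the filter, and the highest value of any of the 5 melanocyte markers was 10.4. Both arrays of assay 3 stood apart in stromal markers, which summed to 4882 and 3505 on its mutant and wild-type array and to at most 156.7 on the other 4 arrays. Of these 8 markers 5 passed the filter. Not all followed the sum: Lum was at the floor on all arrays (at most 5.11), and Dcn on all but wild-type array 3 (62.9). Of 7 neutrophil markers S100a8 alone passed the filter, at 128 and 212 in assay 3 and at least 430.5 elsewhere, and the other 6 were at the floor on all arrays, at most 6.29.

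Of the 8 genes, Tfec was the 1 whose intensities did not overlap between the groups. Its intensities were 311, 317 and 427 on mutant arrays 1, 2 and 3 and 445, 616 and 617 on wild-type arrays 1, 2 and 3. Every mutant array was thus below every wild-type array, by 1.56-fold on the mean of log2(intensity + 16), the scale of all fold and log2 differences below. The log2 difference, mutant minus wild type, was -0.64 ± 0.20 (limma's SE, n = 3 arrays per group), with a 95% interval of -1.14 to -0.15. Within assays 1, 2 and 3 it was -0.49, -0.92 and -0.52. The limma test gave Tfec an unadjusted p of 0.0195, rank 68 of 22497 probe sets, but an adjusted p of 0.99998, so Tfec did not pass. With the replicate number as a block the limma interval narrowed to -0.99 to -0.30 (unadjusted p = 0.00656, adjusted p = 0.859). The unadjusted p was above 0.05 when mutant array 1 or 2 or wild-type array 2 or 3 was left out (0.0619 to 0.0638) and was 0.152 without both arrays of assay 2. Without assay 3, whose stromal markers stood apart, the difference was -0.71 (unadjusted p = 0.0329). Tfec has 1 probe set, so no other probe set of the gene bears on this reading. Fewer cells with Tfec RNA and less of it per cell cannot be told apart in these pooled cultures. The summed osteoclast markers were lower on the same arrays, and their part in the Tfec difference was not tested.

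**Figure D1:**
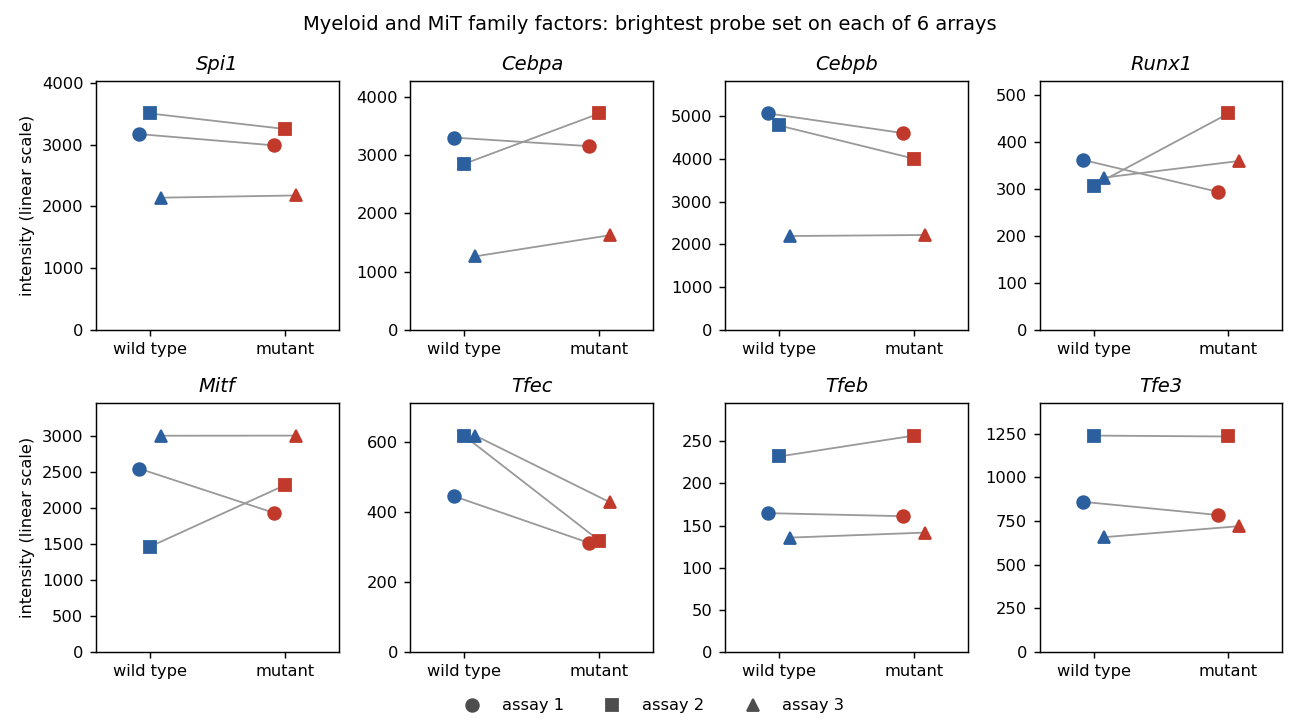
Intensity (linear axis from 0) of the brightest probe set of each of the 8 genes on the 3 wild-type (blue) and 3 mutant (red) arrays. Lines join the arrays of 1 assay; Tfec lies at 311 to 427 in the mutant and 445 to 617 in the wild type, while the groups overlap for the other genes.

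The counts over the 8 genes stood against the whole array as follows. With limma 0 of the 8 genes were called at an adjusted p under 0.05, as were 0% of all 22497 probe sets tested. At an unadjusted p under 0.05, 1 of the 8 (Tfec) was counted, against 0.880% of all probe sets (198). The same gene was counted with the replicate block, against a background of 5.29%. No overlap with the mutant lower was seen for 1 of 8 (background 1.59%) and no overlap with the mutant higher for 0 of 8 (1.47%). Lower in every same-numbered pair was 1 of 8, near the background of 11.7%, and higher in every pair 0 of 8 (13.8%).

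The window before the annotated start of Tfec is shown because Tfec was the member without overlap between the groups, beside those of Acp5 and Ctsk, the osteoclast genes most known as MITF and PU.1 targets. Each is the 250 bases before a RefSeq start in GRCm38.p6, 5′ to 3′ on the gene's strand. For Tfec this is chr6:16898442-16898691 (minus strand), for Acp5 the most downstream of its 3 starts, at chr9:22130599-22130848 (minus strand), and for Ctsk chr3:95498960-95499209 (plus strand). Capitals mark matches on either strand to the PU.1 core GAGGAA, the ETS core GGAAGT, the E-box CACGTG, the M-box core CATGTG, the RUNX site TGTGGT, the C/EBP site TTNCNNAA, the AP-1 site TGANTCA, the NF-kB site GGANTTTCC and the NFAT core GGAAAA; where matches overlap or touch they form 1 capital run.
Tfec: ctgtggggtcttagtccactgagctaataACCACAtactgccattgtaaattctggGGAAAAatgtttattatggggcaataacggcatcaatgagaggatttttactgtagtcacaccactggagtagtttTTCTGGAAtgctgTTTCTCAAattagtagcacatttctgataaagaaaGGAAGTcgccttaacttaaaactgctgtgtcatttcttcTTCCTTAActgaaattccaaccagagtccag
Acp5: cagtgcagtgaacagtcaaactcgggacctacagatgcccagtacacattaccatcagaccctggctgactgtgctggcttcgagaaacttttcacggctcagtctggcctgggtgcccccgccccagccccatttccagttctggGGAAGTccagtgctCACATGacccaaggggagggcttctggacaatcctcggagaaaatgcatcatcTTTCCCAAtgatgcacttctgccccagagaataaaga
Ctsk: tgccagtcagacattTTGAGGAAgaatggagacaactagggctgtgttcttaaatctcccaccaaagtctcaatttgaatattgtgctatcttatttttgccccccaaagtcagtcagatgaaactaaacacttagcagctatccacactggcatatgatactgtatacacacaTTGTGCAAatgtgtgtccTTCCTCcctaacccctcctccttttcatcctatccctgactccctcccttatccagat

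The Tfec window held 1 ETS core, 70 bases before the start, 3 C/EBP sites, at 118, 105 and 31 bases, 1 RUNX site and 1 NFAT core. Among all 32851 windows of that length, 19.7% held the ETS core, 36.8% the C/EBP site, 14.0% the RUNX site and 20.4% the NFAT core. It held no match to either E-box form, to GAGGAA, to the AP-1 site or to the NF-kB site, which 6.02% (CACGTG), 12.3% (CATGTG), 23.3%, 6.75% and 1.07% of windows held. The Acp5 window held an ETS core at 104, an M-box core at 90 and a C/EBP site at 37 bases before its start. The windows of the other 2 Acp5 starts held none of these 3 motifs. The Ctsk window held 2 PU.1 cores, at 233 and 58 bases, and 2 C/EBP sites, at 235 and 76 bases. Windows were found for 7 of the 8 genes (13 windows) and not for Spi1. A match is a string of letters and not a measured site.

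Mitf, the factor that gives the family its name, went opposite ways in the assays. Its brightest probe set read 1933, 2317 and 3007 on mutant arrays 1, 2 and 3 and 2548, 1462 and 3005 on wild-type arrays 1, 2 and 3. The mutant was lower in assay 1 (log2 difference -0.40), higher in assay 2 (0.66) and level in assay 3 (0.00), and the groups overlapped. The mean difference of 0.09 ± 0.32 SE did not pass (95% interval -0.72 to 0.90). With the replicate block the 95% interval was -0.55 to 0.73. A second probe set was dim, at 18.3 to 58.1, and differed by 0.16 ± 0.33 SE.

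Tfeb and Tfe3, the lysosomal regulators of the family, differed little within assays. Tfeb read 161, 257 and 142 on mutant arrays 1, 2 and 3 and 165, 232 and 136 on the wild-type arrays, with pair differences of -0.03, 0.14 and 0.06. Tfe3 read 785, 1235 and 721 on the mutant and 861, 1240.3 and 658 on the wild-type arrays, with pair differences of -0.13, -0.01 and 0.13. Both were brightest in assay 2 in both groups, and their values overlapped. The limma difference was 0.05 ± 0.29 SE for Tfeb and 0.00 ± 0.31 SE for Tfe3; with the replicate number as a block the 95% intervals were -0.17 to 0.28 and -0.25 to 0.25.

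Tfec was then set against the other 3 MiT factors on each array, a measure chosen after the values were seen. The log2 value of Tfec minus the mean log2 value of Mitf, Tfeb and Tfe3 was 0.69 lower on the mutant mean (-1.05 against -0.36), and by pair the difference was -0.31, -1.19 and -0.58. The groups overlapped, mutant array 3 (-0.67) lying above wild-type array 1 (-0.69). The exact permutation test over the 6 arrays gave p = 0.2 (two-sided). Its smallest possible p is 0.1 and it does not use the pairing, so it could not pass 0.05 and settles nothing in either direction.

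**Figure D2:**
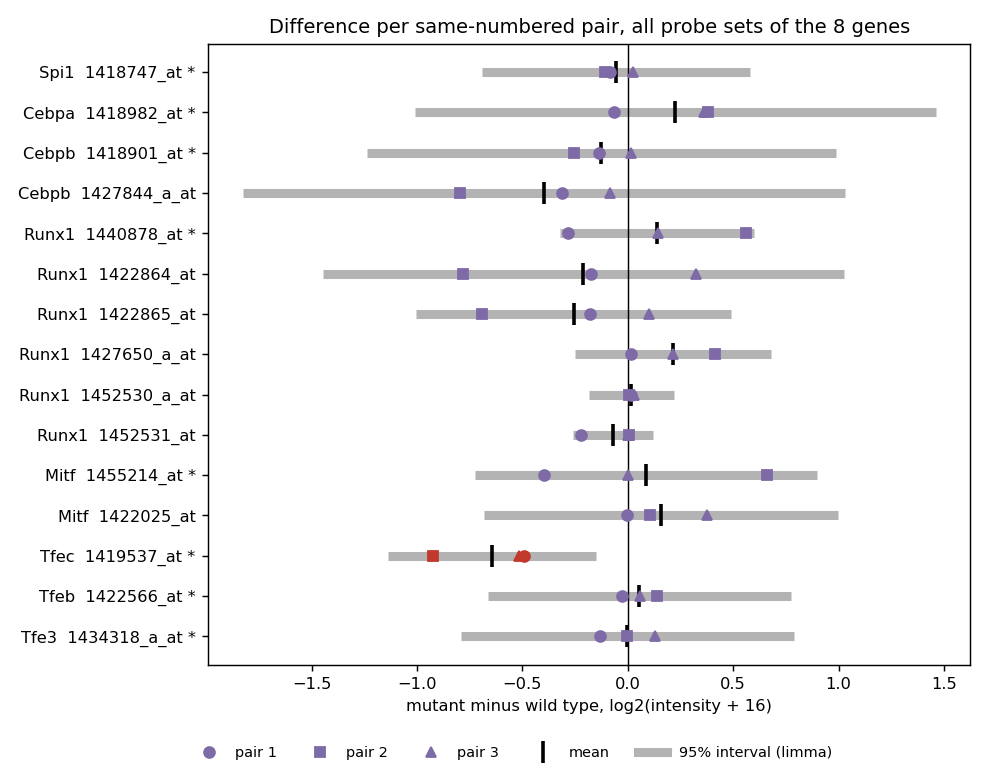
Mutant minus wild type (log2(intensity + 16)) in each same-numbered pair for all 15 probe sets, with the mean (bar) and limma's 95% interval without a block (grey); an asterisk marks the probe set that represents the gene, and the dimmest Runx1 probe set, under the filter, is taken from the fit without it. The Tfec pairs (red, without overlap between the groups) lie at -0.49, -0.92 and -0.52, and its interval is the 1 that does not reach 0.

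Spi1 was nearly level between the groups. Its intensities were 2992, 3258 and 2179 on mutant arrays 1, 2 and 3 and 3175, 3510 and 2143 on the wild-type arrays, so that the groups overlapped and the arrays of each assay were close. The log2 difference was -0.06 ± 0.25 SE by limma, with pair differences of -0.09, -0.11 and 0.02. With the replicate block the 95% interval was -0.27 to 0.16.

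Cebpa and Cebpb also overlapped. Cebpa, the factor that commits progenitors to the granulocyte and monocyte fate, read 3158, 3719 and 1625 on the mutant arrays 1, 2 and 3 and 3305, 2854 and 1262 on the wild-type arrays. It was lower by 0.07 in pair 1 and higher by 0.38 and 0.36 in pairs 2 and 3, with a mean difference of 0.23 ± 0.49 SE. Its 95% interval by limma with the replicate block was -0.13 to 0.58. Cebpb, a factor of macrophage activation, read 4606, 4008 and 2218 on the mutant and 5067, 4785 and 2194 on the wild-type arrays, a log2 difference of -0.13 ± 0.44 SE. For Cebpb the 95% interval with the replicate block was -0.38 to 0.13. Its dimmer probe set read 882, 502 and 320 on the mutant and 1099, 884 and 340 on the wild-type arrays. That probe set was lower in every pair, by 0.31, 0.80 and 0.09, with a mean of -0.40 ± 0.57 SE (limma, unadjusted p = 0.512, or 0.0744 with the replicate block). Neither probe set of Cebpb passed.

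The 6 probe sets of Runx1, which encodes the DNA-binding partner of CBFB in blood cell formation, disagreed. The brightest read 294, 461 and 360 on mutant arrays 1, 2 and 3 and 362, 307 and 325 on the wild-type arrays, a log2 difference of 0.14 ± 0.18 SE. Its 95% interval by limma with the replicate block was -0.39 to 0.66. In assay 2 the brightest was higher in the mutant by 0.56, while the second and the third brightest were lower there by 0.78 and 0.69. Their mean differences were -0.21 ± 0.49 and -0.26 ± 0.30 SE. The fourth brightest differed by 0.21 ± 0.19 SE and the fifth, near the floor, by 0.02 ± 0.08 SE. The dimmest was under the filter, at 6.26 to 10.1. None passed, and no direction can be given for Runx1.

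Except for Tfec and Runx1, the assay took most of the variation. It took 98.0% of the sum of squares of the 6 arrays for Spi1, 92.9% for Cebpa, 97.3% for Cebpb, 98.1% for Tfeb and 97.7% for Tfe3, against at most 3.87% for the group in these 5 genes. For Mitf the assay took 63.0% and the group 1.45%. For Runx1 the shares were 16.4% for the assay and 11.7% for the group, and most of the variation went with neither. For Tfec the shares were 22.7% for the assay and 70.6% for the group. The assay share has more degrees of freedom than the group share, so the shares are not directly comparable. In assay 3 Cebpa and Cebpb averaged 1443 and 2206, against 3231 and 4836 in assay 1 and 3287 and 4396 in assay 2. Mitf was highest in assay 3, at 3006 against 2240 and 1889.5. The stromal markers were high on the arrays of assay 3, and their part in these levels was not tested.

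The genes whose profile over the 6 arrays was most like each member were taken from 10362 other genes. Tfec was most like Src, a kinase needed for bone resorption (Pearson r = 0.999), and Gsdmd, a pore-forming protein of inflammatory cell death (r = 0.998). Src had intensities of 8.95, 10.7 and 26.5 on mutant arrays 1, 2 and 3, close to the floor, and 30.0, 65.1 and 68.4 on the wild-type arrays. Gsdmd read 866, 947 and 1340 on the mutant and 1460, 2230 and 2314 on the wild-type arrays. Both had no overlap between the groups, as the likeness to Tfec requires. Mitf was most like Frmd4a (r = 0.990) and Ly86 (r = 0.983), which also turned from lower in pair 1 (-0.33 and -0.44) to higher in pair 2 (0.53 and 0.73). For the other members the pairs were Zdhhc16 and Capns1 for Spi1, Agtpbp1 and Brpf1 for Cebpa, Mrpl58 and Akr1b8 for Cebpb, Acsl3 and Zbtb42 for Runx1, Mark4 and Dnajb2 for Tfeb, and Ubr4 and Kpna6 for Tfe3. Between members, Tfeb and Tfe3 were the most alike (r = 0.987). These correlations are over 6 arrays that share assays and were picked from many genes, so they describe the arrays only.

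Osteoclast genes known as targets of MITF, TFE3 and PU.1 were mostly lower in the mutant. Of the 8 tested of 10, 7 were lower on average and 1 was higher. Their median log2 difference was -0.57, against 0.01 over all 10363 genes tested, and in pairs 1, 2 and 3 it was -0.63, -0.20 and -1.38. With limma 0 passed, 3 had an unadjusted p under 0.05 and 5 were lower in every pair. Over the 10363 genes, 4852 had a lower and 5511 a higher mean, 118 had such a p, 1244 were lower in every pair and 1501 higher. Acp5 read 505, 220 and 818 on mutant arrays 1, 2 and 3 and 4462, 3745 and 9497 on the wild-type arrays, and Ctsk 193, 752 and 105 against 3114, 2354 and 7375. Dcstamp, a fusion protein, lay between 12.7 and 15.5 in the mutant, close to the floor, and between 67.1 and 200.4 in the wild type. These 3 did not overlap between the groups. Over the 10363 genes, 202 had no overlap with the mutant lower and 141 with the mutant higher.

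The remaining targets differed less. Atp6v0d2 differed by -0.91 ± 0.53 SE, with pairs of -1.11, -0.03 and -1.58. Tnfrsf11a, which encodes RANK, differed by -0.23 ± 0.33 SE, with pairs of -0.02, 0.52 and -1.19. Whether its probe set also read the RANK part of the chimeric receptor was not tested. Clcn7 and Ostm1, the chloride-proton exchanger of the resorption space and its partner, differed by -0.20 ± 0.25 and -0.03 ± 0.11, and Nfatc1 by 0.02 ± 0.10 on its brightest probe set. Oscar and Itgb3 fell under the filter; Oscar read 29.5 and Itgb3 10.6 on wild-type array 3 and at most 4.58 and 3.95 elsewhere. This list was drawn up with earlier results of these arrays known and is not independent evidence of a direction.

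**Figure D3:**
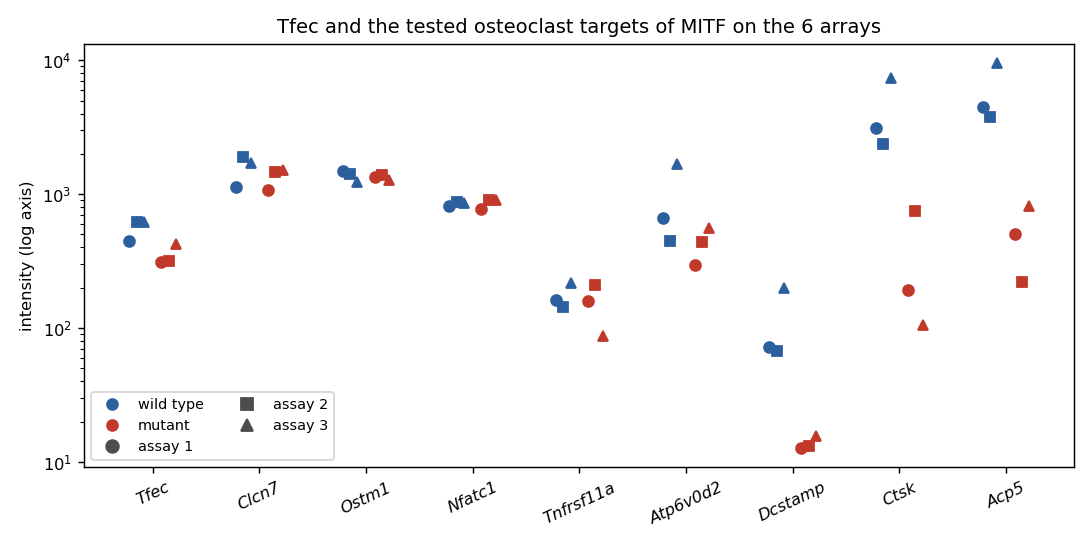
Intensity (log axis) of Tfec and the 8 tested osteoclast targets of MITF on the 3 wild-type (blue) and 3 mutant (red) arrays, with a symbol for each assay; levels of different genes are not comparable. Acp5, Ctsk, Dcstamp and Tfec have no overlap between the groups, while Ostm1 and Nfatc1 do overlap.

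Lysosome and autophagy genes of the CLEAR network, which TFEB and TFE3 bind, had small differences, most of them below 0. Of 24 tested of 27, 19 had a lower and 5 a higher mean, against 4852 lower and 5511 higher over all genes tested, with a median of -0.07, pair medians of -0.08, -0.20 and 0.05 in assays 1, 2 and 3, and a range from -0.32 to 0.09. With limma 0 passed or had an unadjusted p under 0.05, against 118 of 10363 genes with such a p. Lower in every pair were 5, against 1244 of 10363. Sqstm1, the autophagy receptor p62, had the smallest p of these and differed by -0.32 ± 0.17 SE, reading 5205, 5410 and 6513 on the mutant and 5794, 8063 and 7700 on the wild-type arrays. Gpnmb, a membrane protein induced by MiT factors, differed by -0.13 ± 0.10 and Psap, the precursor of the saposins, by -0.16 ± 0.15.

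The RNA of genes whose proteins hold MiT factors in the cytoplasm or act on them differed little too. Of 20 tested of 22, 7 had a lower and 13 a higher mean, with a median of 0.04. By limma 0 passed or had an unadjusted p under 0.05, against 118 of 10363 genes with such a p. Higher in every pair were 3, against 1501 of 10363. Fnip2, a partner of folliculin, was higher in every pair, by 0.28, 0.20 and 0.17, with a mean of 0.22 ± 0.17 SE. Its values of 3000.2, 3942 and 3543 on the mutant and 2466, 3423 and 3145 on the wild-type arrays overlapped. The unadjusted limma p was 0.264, or 0.0463 with the replicate block (adjusted p = 0.859). With the block it was the 1 of 20 under 0.05, against 317 lower and 293 higher of all 10363 genes tested. Rragc, a Rag GTPase, differed by -0.10 ± 0.13 and Ywhaz, a 14-3-3 protein, by 0.09 ± 0.13.

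Of 15 macrophage genes known as PU.1 targets, all tested of 16 listed, 9 had a lower and 6 a higher mean, with a median of -0.05. With limma 0 passed and 0 had an unadjusted p under 0.05, against 118 of all 10363 genes with such a p. Lower in every pair were 3, against 1244 of 10363. Ncf1, a subunit of the phagocyte oxidase, differed by -0.16 ± 0.10 SE and was the 1 without overlap, at 6921 to 7738 against 7844 to 8807. Of all 10363 genes tested, 202 had no overlap with the mutant lower. Itgb2, the beta 2 integrin, differed by -0.18 ± 0.22 and Lyz2, lysozyme, by -0.08 ± 0.09. C/EBP targets showed no shared direction. Of 7 tested of 14, 3 had a lower and 4 a higher mean, and 0 passed. Saa3, an acute-phase protein, read 622, 216 and 6871 on the mutant and 97.8, 200 and 1315 on the wild-type arrays, while Il1b lay between 26.0 and 34.2 in the mutant and between 23.0 and 764 in the wild type, highest on array 3. Saa3 was higher in every pair, by 2.49, 0.10 and 2.37, with an unadjusted limma p of 0.332, or 0.0416 with the replicate block (adjusted p = 0.859). Cxcl1 differed by -0.40 ± 0.73 SE.

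Among 18 other myeloid transcription factors tested of 24, 9 were lower and 9 higher, with a median difference of 0.00. Bhlhe40, a helix-loop-helix repressor, was the 1 with an unadjusted p under 0.05 (limma, 0.0201), against 118 of all 10363 genes, and did not pass. With the replicate block its unadjusted limma p was 0.0365 (adjusted p = 0.859). Its intensities were 206, 114 and 30.4 on mutant arrays 1, 2 and 3 and 426, 316 and 737 on the wild-type arrays. The mutant was lower with no overlap, as in 202 of the 10363 genes. Egr2 and Klf6 differed by -0.43 ± 0.55 and 0.19 ± 0.24 SE. Of 12 relatives of PU.1, RUNX1 and C/EBP tested of 18, 4 were lower and 8 higher, with a median of 0.06 and 0 passing. Spic, the PU.1 relative of red pulp macrophages, had intensities of 10.6, 13.4 and 17.5 in the mutant, close to the floor, and 15.2, 95 and 102.2 on the wild-type arrays (-1.32 ± 0.55 SE; unadjusted p = 0.0582 by limma). Its pair differences were -0.23, -1.92 and -1.82, and with the replicate block the unadjusted limma p was 0.0290 (adjusted p = 0.859). Fli1, an ETS factor, differed by 0.25 ± 0.13 and Runx3 by 0.57 ± 0.37.

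**Figure D4:**
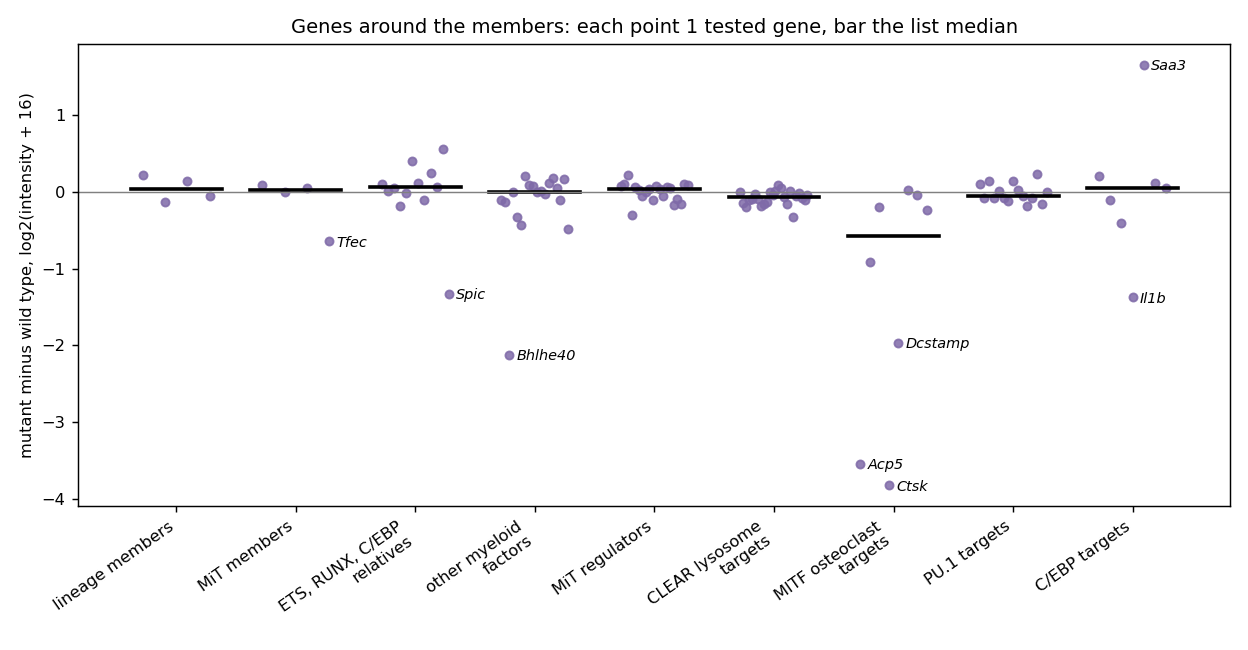
Mutant minus wild type (log2(intensity + 16)) of each tested gene in the lists around the 8 factors, with the list median as a bar. Medians lie between -0.07 and 0.06 except for the osteoclast targets of MITF (-0.57), and Tfec, Spic, Bhlhe40, Acp5, Ctsk, Dcstamp and Il1b stand below 0 and Saa3 above it.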

How the data were processed

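The deposited values were intensities on a linear scale, 1 per probe set and array, which the authors made with GCOS and GCRMA, per the submitters' processing notes; versions and order are not given in the sources used here. GCRMA subtracts background and makes arrays alike in distribution, so dim probe sets lie near a floor. The 75th percentiles were 160.5 to 164.2 on the 6 arrays, and nothing further was normalized. After 64 control probe sets were left out of 45101, intensities were taken as log2(value + 16), which understates differences of dim genes, and 22497 probe sets above the median of their array on at least 3 arrays were kept. Mutant and wild type were compared with limma 3.58.1 (lmFit, eBayes) in R 4.3.3, two-sided, with Benjamini-Hochberg adjustment over all probe sets kept; an adjusted p under 0.05 passed. The steps were run on simulated data with changes larger than that of Tfec, which does not show whether a change of its size would be found. The number of arrays limits the precision.

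Same-numbered arrays deviated together (correlations of 0.797, 0.671 and 0.845, against -0.618 to -0.0138 for others), so the replicate numbers were taken to pair them by assay. Each array was taken relative to the mean of its group, so positive same-numbered correlations push the others below 0. The negative values are thus not separate evidence of the pairing. Alternatives were the pseudocount, the filter, quantile normalization, the replicate block, averaged probe sets, and arrays or assays left out.

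Of the genes, those named were all 8 members with every probe set, the 3 of each list with the smallest p, all osteoclast targets of MITF and the 2 profiles most like each member. The members and lists (191 genes, 14 without a probe set of 1 symbol) were chosen with earlier results of these data known, and the motifs and the comparison of Tfec with its relatives after the values were seen. The symbols came from the platform annotation, and the gene identifiers of all 8 members were found in RefSeq GRCm38.p6, from which the promoter windows came. Probe set positions were not used here. The p-values judge a difference against the spread between these arrays. With the replicate block, that spread leaves out the differences between assays.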

Additional observations from a re-analysis of the deposited data

How the results depend on the processing

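No member passed under any of the 17 alternatives to the limma fit. The log2 difference of Tfec stayed negative in all 17, from -0.80 to -0.50, and its unadjusted limma p ranged from 0.00199 to 0.152, under 0.05 in 12; with the replicate number as a fixed or random block the count of members at such a p was 1. That count was 0 to 1 when arrays or assays were left out. Without overlap there were then 1 to 2 members, lower in every remaining pair 1 to 4 and higher 0 to 4, since fewer pairs have to agree by construction. With the probe sets of a gene averaged, 2 members (Tfec and Cebpb) were lower in every pair, and Runx1 turned to -0.019. Leaving out arrays or assays turned the sign of each other member, none of which passed: the differences ranged from -0.27 to 0.12 for Spi1, -0.20 to 0.58 for Cebpa, -0.51 to 0.19 for Cebpb, -0.072 to 0.35 for Runx1, -0.22 to 0.33 for Mitf, -0.18 to 0.25 for Tfeb and -0.24 to 0.23 for Tfe3. Dim probe sets near the floor, such as the second one of Mitf, limit what can be read from them.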
